A study of Homo sapiens and Mus musculus with 20 samples.

Results

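The BCL2 family was examined at 10 genes in SW480, an established human colorectal adenocarcinoma line that the labels describe as colon epithelial. The members were 3 anti-apoptotic genes (BCL2L1, BCL2 and MCL1), the effectors BAX and BAK1, and 5 BH3-only genes (BCL2L11, BBC3, PMAIP1, BID and BIK). Accessible regions were taken from each gene body and 20 kb on both sides in GENCODE 44 (GRCh38), which gave 181 of the 252173 SW480 regions. Accessibility came from ATAC-seq, an assay that tags open DNA with adapters carried by the transposase Tn5, and peaks had been called in each library separately. One experiment compared cells given 10 mM sodium propionate (NaPr) with untreated cells (0 mM). Another, whose labels carry a different date, compared cells given 1 mM sodium butyrate (NaBu) with its own untreated cells. Each of the 4 groups held 3 libraries, treatment lasted 12 to 16 hours, and the labels name no transgene or deletion. Nothing in the labels states that replicates were separate cultures, so the p-values describe the spread between these libraries, which may be technical. The members were chosen by their known roles, but BCL2L1 was also selected on its percentile ranks in the NaBu experiment, since an intron of it had the largest loss there. Its values in the NaBu experiment are therefore given as a description without a test.

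BCL2 family proteins decide whether the outer mitochondrial membrane is breached. BCL2, BCL-XL (the long product of BCL2L1) and MCL1 hold BAX and BAK1 in check, BH3-only proteins bind and neutralize these guardians or activate BAX and BAK1 directly, and the pores that BAX and BAK1 form release cytochrome c to the caspases. Butyrate and propionate inhibit histone deacetylases, and butyrate is widely known to slow growth and promote apoptosis of colon cancer cells.

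The sequences around the summits of a region that rose and of a start region that fell in both experiments are shown first, since results below turn on them. Each is 200 bases on the plus strand of GRCh38, and capitals mark matches to one of the motifs sought on both strands. The window upstream of BCL2L11 (chr2:111100784-111100983) holds none of the motifs. The window at the summit of the BID start region (chr22:17773763-17773962), with a GC content of 65.5%, holds 1 GC box (GGGCGG). This window lies inside the gene and does not reach the annotated start at 17774469. The RefSeq promoter over that start (chr22:17774420-17774719) holds 4 GC boxes. In 152 of the 181 windows no 32-base word was repeated in the genome, among them that of the BCL2L1 intron, while 46.7% of the words in the window upstream of BCL2L1 occur more than once, so that reads there could be harder to place.
BCL2L11 upstream: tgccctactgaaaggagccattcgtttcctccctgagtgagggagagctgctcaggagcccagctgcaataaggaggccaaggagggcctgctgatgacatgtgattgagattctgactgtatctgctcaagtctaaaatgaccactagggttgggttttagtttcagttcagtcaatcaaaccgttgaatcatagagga
BID start: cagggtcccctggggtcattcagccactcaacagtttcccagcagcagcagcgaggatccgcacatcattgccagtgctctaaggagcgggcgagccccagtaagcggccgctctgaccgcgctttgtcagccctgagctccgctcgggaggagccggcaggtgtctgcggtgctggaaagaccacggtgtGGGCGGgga

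Total read numbers were not used here, so depth was read from the peak lists. The 12 libraries held between 108442 and 144398 peak intervals, of which 108 to 130 lay in the 10 gene windows. Each list held 299022 to 299463 summit lines. The lowest −log10 p listed was 3.37 to 6.53 in the NaPr experiment and 7.25 to 9.38 in the NaBu experiment. The level below which no peak was listed thus differed between libraries, and its part in the results was not tested. The background pileup, the number of overlapping tags in a genome position without enrichment, ranged from 0.936 to 2.35 tags in the NaPr experiment and from 2.11 to 3.03 tags in the NaBu experiment. Of 9 epithelial and colon markers, 6 (EPCAM, KRT8, KRT18, CDX2, VIL1 and CDH1) had a peak at the start in all 6 untreated libraries, and CDX1 in none. Among 9 markers of other cell types 6 had none, whereas CD68 and COL1A2 had a peak in all 6 and PDGFRB in 5.

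Within each library, regions with a peak in at least 2 of the 6 libraries of an experiment were ranked by their highest −log10 p and given a percentile from 0 (no peak listed) to 100. A change is the difference of mean percentile ranks, treated minus untreated, in percentile points. Regions without a peak tied at 0, so even the weakest listed peaks ranked well above them. In untreated NaPr replicate 1, for example, a peak with a −log10 p of 3.381 had rank 23.1, where the lowest listed was 3.374. A change to or from 0 therefore includes this step. After NaPr, 6 of 114 tested regions in the 10 gene windows were higher and 6 were lower at a limma adjusted p below 0.05 (5.26% each). Over all 124067 tested regions the shares were 4.57% higher and 3.99% lower. Within the family's count BCL2L1 had 5 of 28 regions higher (17.9%) and 1 lower (3.57%), and the other 9 genes had 1 of 86 higher (1.16%) and 5 lower (5.81%). Whether BCL2L1 differed from them was not tested. Of the 181 regions, 114 passed this filter in the NaPr experiment and 124 (31 of them at BCL2L1) in the NaBu experiment. After NaPr the median change was −0.962 points in the family and 0.0244 over all regions, and 36 of the 114 regions had an unadjusted p below 0.05. After NaBu, 10 of 93 regions of the other 9 genes were higher (10.8%) and 19 were lower (20.4%), against 19.8% and 17.2% of 123730 regions. The median change there was −1.89 points, and over all regions it was 0.710.

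In the gene windows the direction of the NaPr counts depended on the scaling, and that of the NaBu counts did not, although their size moved. Recovered tag numbers at summits were also used in place of ranks, for regions with a peak in all 6 libraries. Relative to the genome background, NaPr gave 10 higher and 0 lower of 75 regions (13.3% and 0%), against 13.5% and 1.10% of 65178 regions. After centring on the median NaPr gave 11 higher and 17 lower (14.7% and 22.7%), against 12.2% and 19.9% of all regions. The first scaling shifted the median of all regions by 0.21 on the log2 scale after NaPr. After NaBu both scalings gave 3 higher and 31 lower of 58 regions of the 9 genes without BCL2L1 (5.17% and 53.4%), against 23.997% to 24.4% higher and 28.6% to 28.8% lower over all 72559 regions. Over all regions, 53.3% of NaPr calls were higher by rank, 92.4% relative to the genome background and 38.1% after centring. Of NaBu calls over all regions, 53.4%, 45.5% and 46.0% were higher, so there the direction moved as well. The NaPr calls also rested on all 3 treated libraries, since 0 regions in the genome passed the limma threshold without treated replicate 1, 2 or 3, although 28515 to 29579 then had an unadjusted p below 0.05. Of the 13 NaPr calls described by name below as the largest of their gene or list, each was lost whichever treated library was left out (limma adjusted p from 0.0545 to 0.127), and 35 of 39 fits without an untreated library lost them too (limma adjusted p from 0.0314 to 0.174).

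By role, the anti-apoptotic genes BCL2 and MCL1 had 0 higher and 2 lower of 16 regions after NaPr, and 2 higher and 6 lower of 21 after NaBu. BAX and BAK1 had 0 higher and 1 lower of 22 after NaPr, and 2 higher and 4 lower of 18 after NaBu. The BH3-only genes had 1 higher and 2 lower of 48 after NaPr, and 6 higher and 9 lower of 54 after NaBu. Over all regions, 4.57% were higher and 3.99% lower after NaPr, and 19.8% and 17.2% after NaBu. Whether any role differed from these shares was not tested. BCL2L1 had 5 higher and 1 lower of 28 regions after NaPr, and whether it differed from the other genes was not tested. Of 71 regions of the 9 other genes tested in both experiments, 5 were called in both (7.04%), 4 of them lower and 1 higher, and none was called in opposite directions. Over all 83651 regions tested in both, 6.79% were called in both, and 2.66% of those 5683 were called in opposite directions, so the family's share was near that of all regions. The doses were 10 mM and 1 mM, so the compounds were not compared.

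**Figure D1:**
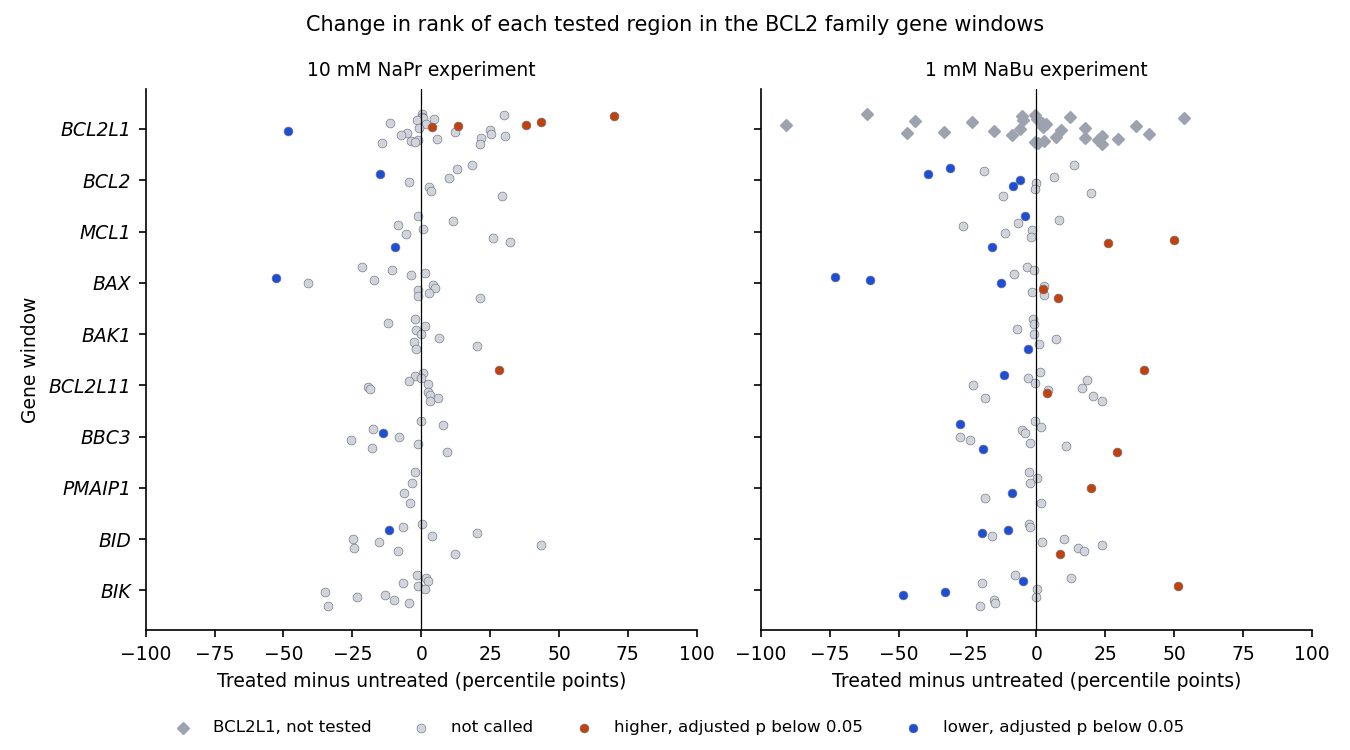
Change in percentile rank, treated minus untreated, of each tested region in the window of each gene, for the experiments with 10 mM NaPr (left) and 1 mM NaBu (right). Points are spread vertically within a gene, orange and blue points are regions with a limma adjusted p below 0.05, and grey diamonds are BCL2L1 regions after NaBu, which were not tested and reach −91.0 points.

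BCL2L1 is on the minus strand of chromosome 20 (31664452 to 31723989, GRCh38), and its window held 38 regions, or 38.2 per 100 kb, the most of the 10 genes on both counts. An intronic region (chr20:31708311-31709411), which lies 14004 bp past the start and also overlaps the antisense gene BCL2L1-AS1, had a listed peak in opposite groups of the experiments. Without NaBu its percentile ranks were 90.6, 91.0 and 91.5, and with NaBu no peak was listed in any of the 3 libraries. This change of −91.0 points was the largest loss of all 123730 regions tested after NaBu, and the regions that followed it, on chromosomes 8 and 15, changed by −89.0 and −87.4 points. In the NaPr experiment the same region had no peak in the 3 untreated libraries and ranks of 50.8, 36.6 and 42.5 in the treated ones, so the groups did not overlap (change 43.3, SE 10.2, limma adjusted p = 0.0326).

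The summit carried 597, 401 and 497 tags in the NaBu experiment's untreated libraries, and 71, 77 and 131 tags after NaPr. From the background of the flanking regions, a summit there would have needed at least 28 to 54 tags to be listed in the untreated NaPr libraries and at least 124 to 138 tags in the NaBu-treated ones. Absence of a peak is therefore an upper limit on the tags and not a count of 0. The local background against which MACS2 tests a summit had a median of 8.50 to 16.4 times the genome background over the BCL2L1 regions. At BAX the median was 3.87 to 20.01 times, against 1.56 to 2.08 times over all regions. In the NaPr experiment the BCL2L1 median was 11.2, 8.50 and 10.4 times in untreated and 16.4, 13.7 and 15.6 times in treated libraries. For NaBu these were 9.34, 9.09 and 10.4 untreated and 10.8, 10.6 and 9.45 treated. Beside the intron the local background was 10.7 to 15.2 times the genome background in untreated and 23.8 to 27.8 times in NaPr-treated libraries. It was 29.5 to 31.6 times in the NaBu experiment, and its part in the results at BCL2L1 was not tested.

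The untreated cells of the experiments thus differed at this intron, with a peak in 0 of 3 and in 3 of 3 libraries. Among 4599 regions that had a peak in the 3 untreated and in no treated library of the NaBu experiment, 3182 (69.2%) had no peak in the untreated libraries of the NaPr experiment. Only 5 (0.109%) had the reverse pattern after NaPr, and the BCL2L1 intron was one of them. Ranking by fold enrichment in place of −log10 p changed the loss after NaBu to −36.1 points. The NaPr gain was lost without each of the 6 libraries in turn (limma adjusted p from 0.0668 to 0.0806), and over all alternatives its limma adjusted p ran from 0.000729 to 0.195.

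**Figure D2:**
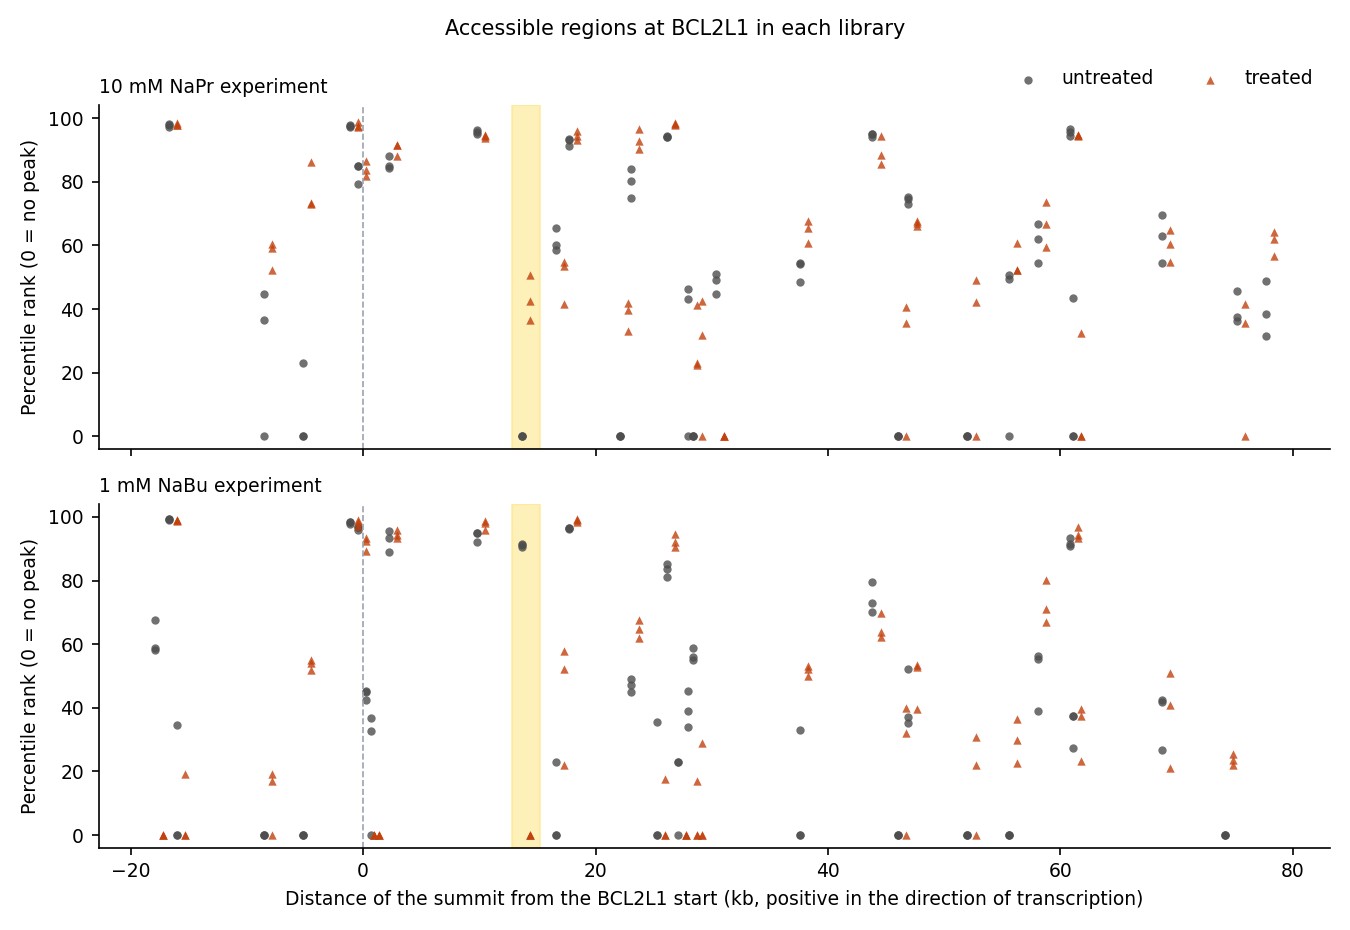
Percentile rank of each tested BCL2L1 region in each library, against the distance of its summit from the start, for the NaPr (top) and NaBu (bottom) experiments, with circles for untreated and triangles for treated libraries (3 each). The shaded intron has no peak in the untreated NaPr libraries and in the NaBu-treated libraries, while each neighbour has a peak in at least 1 library of both groups.

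The regions next to it on both sides did not share this loss, but others farther along did, and of 15 intronic BCL2L1 regions 9 had a higher and 6 a lower mean rank with NaBu. The region at chr20:31712064-31713860 had ranks of 92.2, 94.9 and 94.9 without and 96.0, 98.1 and 98.6 with NaBu, so it was higher in each treated library, although by fold the change shrank to 1.71 points (SE 4.01). At chr20:31704036-31705168 the ranks were 96.2, 96.4 and 96.5 without and 98.5, 99.3 and 99.2 with NaBu. Closest to the lost region on that side, chr20:31705447-31706400 had ranks of 0, 23.1 and 0 without and 22.02, 57.8 and 52.1 with NaBu, and these groups overlapped. Among the lower ones, chr20:31694012-31694221 had ranks of 58.6, 54.9 and 55.8 without and 0, 29.0 and 0 with NaBu, and chr20:31694452-31694755 changed by −33.6 points. After NaPr none of the 3 adjacent regions was called, with limma adjusted p-values of 0.232, 0.238 and 0.261. At the region starting at 31705447 the NaPr change was −11.4 points by rank, but in recovered tags it was the other way, a rise of 0.45 on the log2 scale after centring on the median and of 0.71 relative to the genome background (limma adjusted p = 0.0133 and 0.0326).

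Upstream of BCL2L1, a region at chr20:31727450-31727981, 4582 bp before the start, ranked higher with treatment in both experiments. In the NaPr experiment its ranks were 23.1, 0 and 0 without and 86.3, 73.5 and 72.9 with the compound (change 69.9, SE 9.61, limma adjusted p = 0.00624). This was the largest rise in the family after NaPr, and the groups did not overlap. With NaBu the ranks were 55.0, 54.2 and 52.0 and no peak was listed in the 3 untreated libraries. The NaPr call was lost without untreated replicate 3 or any treated replicate, with limma adjusted p-values up to 0.0598.

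Farther into the gene, a region 26111 bp past the start (chr20:31695779-31696757) rose from 94.2, 93.9 and 94.3 to 98.1, 98.6 and 97.9 after NaPr (limma adjusted p = 0.0074), and its ranks were 81.2, 83.5 and 85.3 without and 91.9, 94.6 and 90.4 with NaBu. A further 2 intronic regions, chr20:31699103-31699702 and chr20:31700270-31700457, rose after NaPr with changes of 13.4 and 38.2 points (limma adjusted p = 0.0121 and 0.0451). The single loss after NaPr was intronic as well (chr20:31691824-31692280), where ranks of 44.8, 49.1 and 51.0 gave way to no peak in the treated libraries (change −48.3, SE 9.88, limma adjusted p = 0.0212). The start region (chr20:31722464-31723086) had ranks of 84.8, 85.1 and 79.4 without and 83.6, 86.4 and 81.7 with NaPr (limma adjusted p = 0.848), and of 96.9, 95.8 and 96.7 without and 93.3, 89.4 and 92.4 with NaBu. Over the 31 BCL2L1 regions of the NaBu experiment, 18 had a higher and 13 a lower mean rank with NaBu, 3 had peaks in all treated libraries only and 3 in all untreated libraries only. Over all 123730 regions the median change was 0.710 points, and 4599 regions had peaks in all untreated libraries only. Whether BCL2L1 differed from all regions was not tested.

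Over the 12 libraries, the regions whose ranks followed those of the BCL2L1 intron most closely, among regions of protein-coding genes outside the family, belonged to RBM47, TBC1D16, MTIF2, GTPBP2 and DMPK. Their Pearson r was 0.952, 0.945, 0.928, 0.922 and 0.918 across the same 12 libraries, which share experiment and treatment. The TBC1D16 and GTPBP2 regions had no peak in the untreated NaPr and the treated NaBu libraries either. Those of RBM47, MTIF2 and DMPK had a peak in all 12 libraries. Ranked over the 12 libraries, they ran from 71.4 to 88.7, 96.7 to 99.3 and 75.3 to 98.6, against 0 to 93.7 for the intron.

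**Figure D3:**
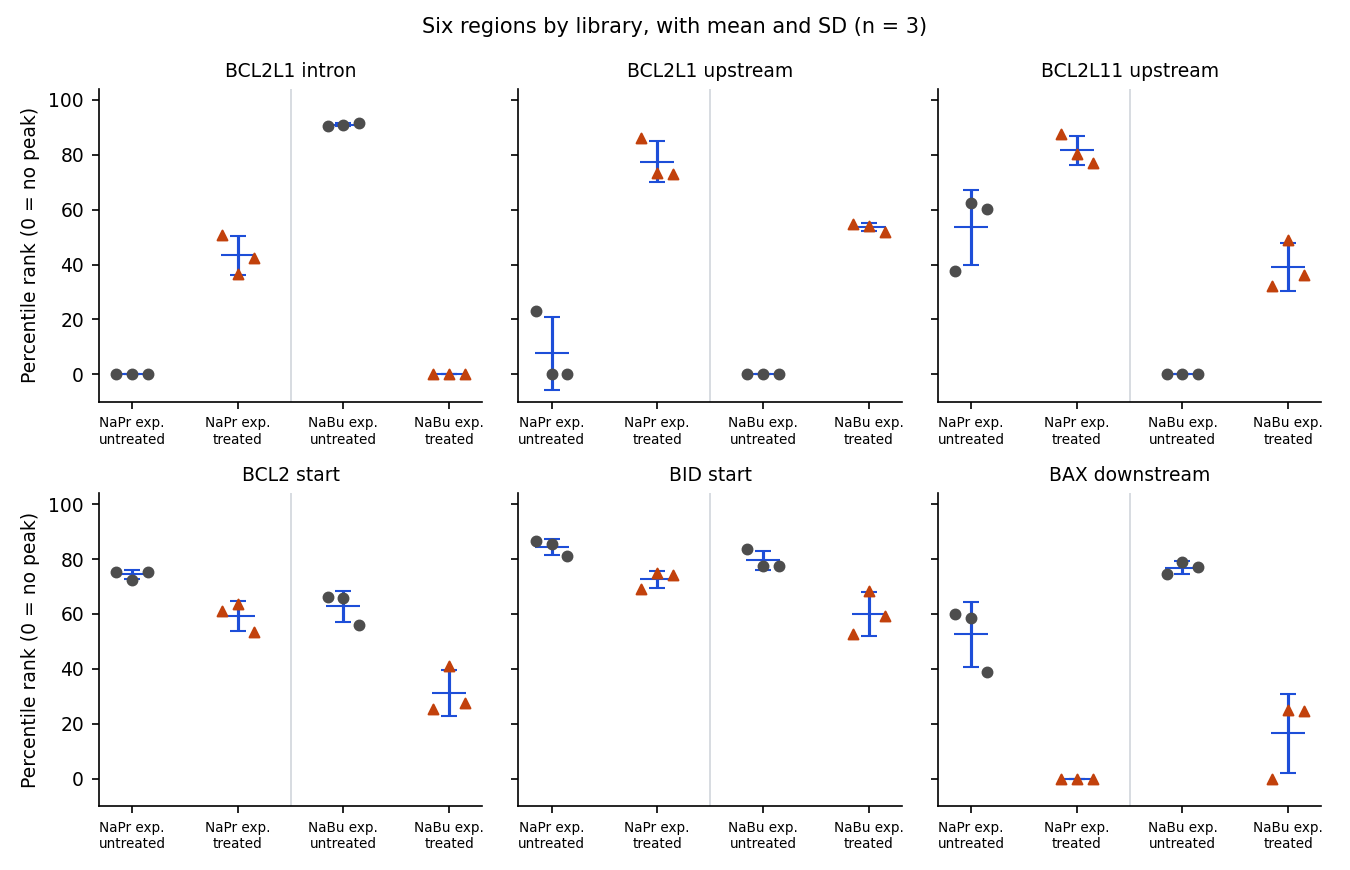
Percentile ranks of 6 regions in every library (points) with the mean and SD of each group (blue, n = 3). The BCL2L1 intron has peaks in the NaPr-treated and the untreated NaBu libraries only, the upstream regions of BCL2L1 and BCL2L11 are higher in treated libraries of both experiments, and the BCL2, BID and BAX regions are lower.

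Promoters were examined next as the regions over, or nearest to, the annotated start of each gene. Background was taken from regions over a start of any protein-coding transcript, of which 1.86% were higher and 9.14% lower after NaPr, and 9.22% higher and 26.1% lower after NaBu. Of the 10 family promoters 0 were higher and 2 lower after NaPr, namely BCL2 and BID. Of 9 promoters, without BCL2L1, 0 were higher and 4 lower after NaBu, namely BCL2, MCL1, BCL2L11 and BID, and 8 of the 9 changes were below 0. The median changes were −2.86 points over the 10 promoters after NaPr and −11.6 points over the 9 after NaBu, against −1.10 and −1.35 points over all start regions.

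BCL2, the founding anti-apoptotic member, is on the minus strand of chromosome 18 (63123346 to 63320128) and its start region (chr18:63319474-63321222) fell in both experiments. Its ranks were 75.4, 72.6 and 75.2 in untreated and 60.9, 63.8 and 53.4 in NaPr-treated libraries, without overlap (change −15.0, SE 3.91, limma adjusted p = 0.0441). In the NaBu experiment they were 66.3, 65.9 and 56.1 untreated and 25.2, 41.0 and 27.7 treated, again without overlap (change −31.5, SE 5.95, limma adjusted p = 0.00567). The NaBu call was kept without each single library (limma adjusted p at most 0.0274), but among the top 50000 intervals the change was −16.5 points with a limma adjusted p of 0.114. A narrow region in an exon of another BCL2 transcript (chr18:63318976-63319074) had ranks of 29.3, 46.9 and 41.3 and no peak with NaBu (limma adjusted p = 0.0034). Intronic and alternative-start regions at chr18:63237959-63239029 and chr18:63161444-63162207 fell by 5.77 and 8.31 points after NaBu (limma adjusted p = 0.00278 and 0.0143). No BCL2 region was called higher in either experiment, though an intronic one (chr18:63131047-63131583) changed by 29.4 points after NaPr and 19.9 after NaBu with overlapping groups, and the median BCL2 change after NaPr was 6.84 points.

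MCL1, a short-lived anti-apoptotic protein, is on the minus strand of chromosome 1 (150560895 to 150579738). Its start region (chr1:150578569-150580291) had ranks of 95.9, 94.7 and 91.9 without and 92.3, 89.3 and 88.3 with NaBu, which overlapped slightly (change −4.24, SE 1.32, limma adjusted p = 0.0384). That call was lost without untreated replicate 1 or 2 or treated replicate 2 or 3, with limma adjusted p-values from 0.128 to 0.155, and under 4 of the other alternatives. After NaPr the start region was not called (change −1.22, SE 1.58, limma adjusted p = 0.668). At a distance of 29774 bp past the MCL1 start, a region inside ADAMTSL4 (chr1:150548481-150549836) fell in both experiments, from 88.9, 90.1 and 91.9 to 80.4, 79.1 and 82.5 with NaPr (limma adjusted p = 0.00775) and from 81.3, 77.6 and 76.5 to 58.3, 63.3 and 65.3 with NaBu (limma adjusted p = 0.00376). Nearby, chr1:150551805-150552731 had no peak in untreated libraries of the NaBu experiment and ranks of 55.1, 47.1 and 47.8 with NaBu (change 50.002, SE 5.39, limma adjusted p = 0.000734). A second rise beside it, at chr1:150550442-150551671, was 26.2 points (limma adjusted p = 0.0122). The regions starting at 150548481, 150550442 and 150551805 all lie past the 3′ end of MCL1 and inside ADAMTSL4. Those starting at 150548481 and 150551805 also cover a start of a protein-coding transcript of another gene, so these changes need not concern MCL1.

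The promoters of the pore-forming effectors were not called. BAX (plus strand, chromosome 19, 48954815 to 48961798) had start-region ranks of 84.6, 87.0 and 86.7 without and 90.3, 87.9 and 84.5 with NaPr (limma adjusted p = 0.587), and 92.5, 92.1 and 87.5 without and 93.0, 86.5 and 90.4 with NaBu (limma adjusted p = 0.796). BAK1 (minus strand, chromosome 6, 33572547 to 33580293) stayed between 92.4 and 97.6 in all 12 libraries, with limma adjusted p-values of 0.942 after NaPr and 0.221 after NaBu. The groups overlapped in 3 of these 4 comparisons. At BAK1 after NaBu the treated ranks of 96.95, 96.92 and 97.65 all lay above the untreated 96.88, 96.70 and 94.99, by a change of 0.980 that did not pass the test. The 4 changes had SEs between 0.602 and 1.903 points.

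Past the 3′ end of BAX, toward the ferritin light chain gene FTL, a pair of narrow regions was lost. At chr19:48963422-48963719 the ranks were 68.8, 74.4 and 75.5 in untreated libraries, and no peak was listed with NaBu (change −72.9, SE 4.89, limma adjusted p = 0.000299). The next one, chr19:48963845-48964184, had ranks of 74.4, 79.1 and 77.1 without and 0, 25.0 and 24.7 with NaBu (limma adjusted p = 0.0011), and of 60.1, 58.5 and 39.0 without and 0 in each library with NaPr (change −52.5, SE 10.6, limma adjusted p = 0.0204). Another narrow region, chr19:48964521-48964636, changed by −12.8 points after NaBu (limma adjusted p = 0.0302). The region over the FTL start itself (chr19:48965084-48966258) rose by 2.61 points after NaBu (limma adjusted p = 0.0129), and chr19:48978544-48979274, in the glycogen synthase gene GYS1, by 7.92 points (limma adjusted p = 0.0059), a call lost when ranked by fold (limma adjusted p = 0.0877) or with all 12 libraries in one fit (limma adjusted p = 0.0648). At BAK1 only chr6:33570747-33571862, 8414 bp past the start, was called, with a change of −3.01 points after NaBu (limma adjusted p = 0.0147) that did not pass without untreated replicate 1 or 2 or treated replicate 1 or 2 (limma adjusted p up to 0.0606).

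BCL2L11 encodes BIM, a BH3-only protein that binds every anti-apoptotic member. It is on the plus strand of chromosome 2 (111119378 to 111168444), and its start region (chr2:111120227-111121099) had ranks of 97.3, 95.8 and 88.2 without and 90.4, 76.2 and 79.9 with NaBu, with an overlap of 1 library (change −11.6, SE 3.74, limma adjusted p = 0.0436). This call was lost without untreated replicate 1 or 2 or treated replicate 2 or 3 (limma adjusted p from 0.152 to 0.179). Upstream, a region inside ACOXL and MIR4435-2HG, 19571 bp before the start (chr2:111100502-111101343), was the sole family region outside BCL2L1 called higher after NaPr, where uncalled changes of other members reached 43.4 points. Its ranks were 37.7, 62.5 and 60.4 without and 87.5, 80.3 and 77.1 with NaPr (change 28.1, SE 6.28, limma adjusted p = 0.0277). With NaBu they were 32.04, 48.8 and 36.3, and no peak was listed in the untreated libraries of that experiment (change 39.0, SE 6.43, limma adjusted p = 0.00334). The groups did not overlap in either experiment, and the NaBu call was kept without each single library, whereas the NaPr call passed only without untreated replicate 1 (limma adjusted p = 0.0485) and otherwise had values up to 0.126. Just past the 3′ end of BCL2L11, chr2:111168494-111169565 rose by 3.99 points after NaBu (limma adjusted p = 0.047).

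BID links death receptors to mitochondria after cleavage by caspase 8. Its start region (minus strand, chr22:17772813-17774804) fell with both compounds, from 86.6, 85.4 and 81.0 to 69.1, 74.8 and 74.1 with NaPr (change −11.7, SE 2.37, limma adjusted p = 0.0204) and from 83.5, 77.5 and 77.6 to 52.5, 68.3 and 59.1 with NaBu (change −19.6, SE 4.17, limma adjusted p = 0.00894). Neither pair of groups overlapped, and without any single library the NaBu call had a limma adjusted p of at most 0.047. A region 6476 bp upstream (chr22:17780945-17782183) fell from 93.5, 94.7 and 95.0 to 83.0, 84.0 and 85.2 after NaBu (limma adjusted p = 0.000388) and was not called after NaPr (change −6.49, limma adjusted p = 0.0606). One intronic BID region (chr22:17742147-17743353) went the other way after NaBu, from 65.9, 67.3 and 66.6 to 76.0, 73.9 and 75.8 (limma adjusted p = 0.0147), while its change after NaPr was −8.28 (limma adjusted p = 0.0542).

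BIK, a BH3-only protein of the endoplasmic reticulum, is on the plus strand of chromosome 22 (43110750 to 43129712). Regions at its 3′ end fell after NaBu, in the last UTR (chr22:43129508-43129786) from 77.9, 81.1 and 74.4 to 27.7, 21.9 and 38.3 (change −48.5, SE 5.24, limma adjusted p = 0.000743) and in a coding exon (chr22:43128672-43129392) from 85.2, 83.8 and 85.1 to 49.1, 52.5 and 53.5 (limma adjusted p = 0.000338). An intronic region, chr22:43125927-43126352, had no peak in untreated libraries and ranks of 47.7, 55.4 and 50.8 with NaBu (change 51.3, SE 5.29, limma adjusted p = 0.000645), but 68.0% of the 32-base words in its window occur more than once in the genome. The BIK start region was not called, with changes of −6.72 after NaPr and −19.7 after NaBu (limma adjusted p = 0.174 and 0.0667). An upstream region, chr22:43103431-43104697, changed by −4.86 points after NaBu (limma adjusted p = 0.0103), and no BIK region was called after NaPr.

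BBC3 and PMAIP1 encode PUMA and NOXA, BH3-only proteins that respond to cellular stress. At BBC3 (minus strand, chromosome 19, 47220822 to 47232766), the region next to the start (chr19:47231298-47231998) fell from 77.6, 85.2 and 80.4 to 73.8, 59.9 and 67.8 with NaPr, a change of −13.9 (SE 3.70, limma adjusted p = 0.0473), and was not called after NaBu (limma adjusted p = 0.594). The region over the start had ranks of 39.4, 43.9 and 0 without NaBu and none with it, which did not pass the test (limma adjusted p = 0.0975). Small distal regions on both sides of BBC3 changed in opposite directions after NaBu, a rise of 29.5 points at chr19:47209963-47210095 and a fall of 27.8 points at chr19:47243373-47243484 (limma adjusted p = 0.00979 and 0.00821). Between the gene and the first of these, chr19:47210547-47211164 changed by −19.2 points (limma adjusted p = 0.00866). When ranks were taken only among regions with a peak in the library, an alternative chosen after seeing the data, the region at 47243373 changed by −7.55 points and was not called (limma adjusted p = 0.178).

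The PMAIP1 start region (chr18:59898962-59901119) was not called in either experiment, with ranks of 86.0, 81.6 and 86.5 against 79.4, 83.6 and 80.7 for NaPr and 91.0, 88.7 and 89.2 against 91.9, 84.4 and 86.0 for NaBu (limma adjusted p = 0.26 and 0.359). Past its 3′ end, chr18:59918210-59918954 fell by 8.68 points after NaBu (limma adjusted p = 0.014), a call lost without untreated replicate 1 or 3 or treated replicate 3 (limma adjusted p up to 0.0584). A weak region beside it, chr18:59917638-59917724, appeared with NaBu at ranks of 21.0, 18.7 and 20.3 (limma adjusted p = 0.0295). That call was lost with the replicate number as a block (limma adjusted p = 0.0855) and, at 4.80 points, with ranks among regions that have a peak (limma adjusted p = 0.235).

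**Figure D4:**
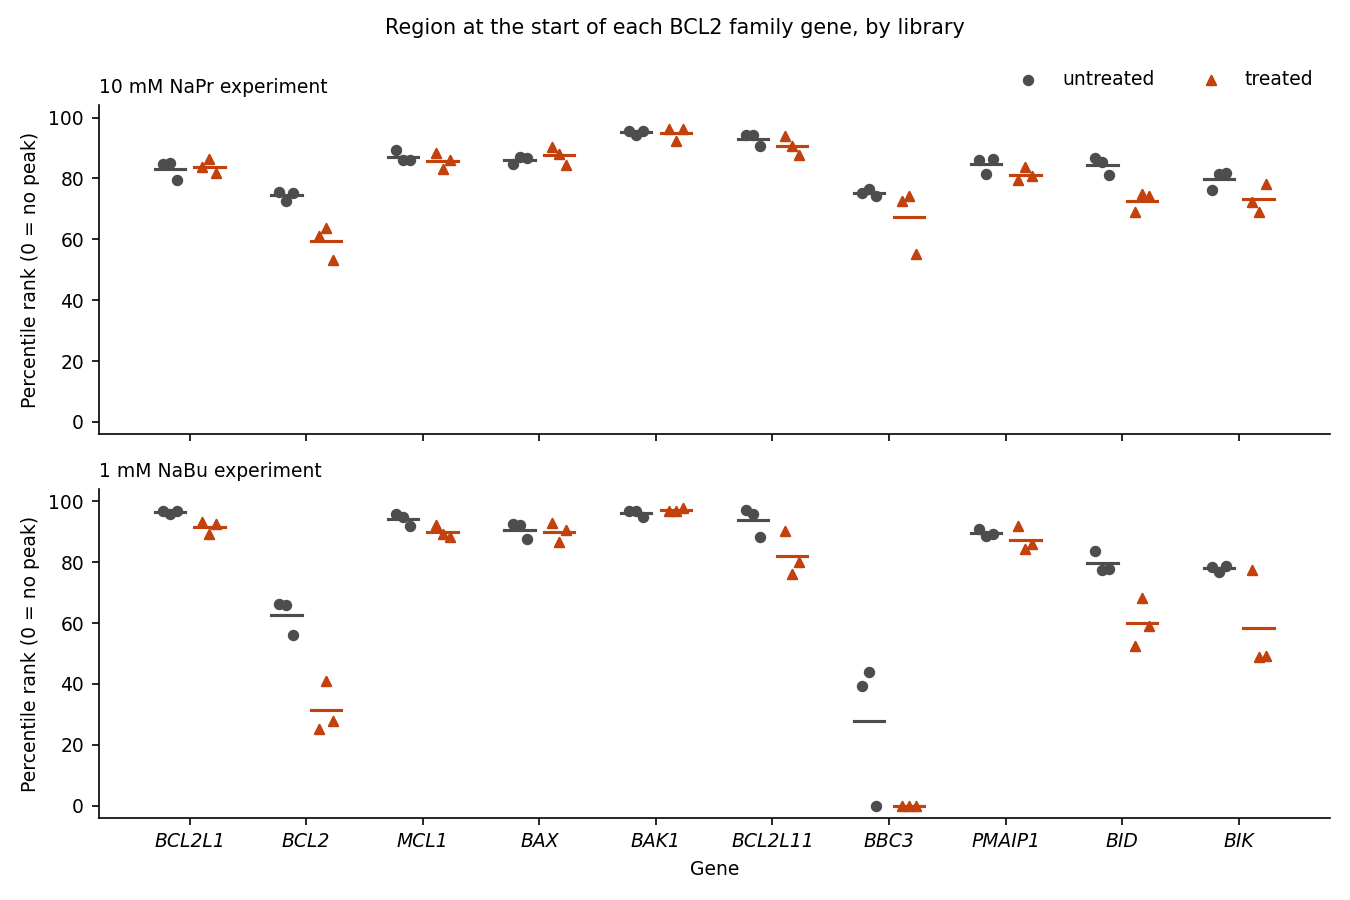
Percentile rank of the region at the start of each family gene in each library, with group means as lines, in the NaPr (top) and NaBu (bottom) experiments (3 untreated and 3 treated libraries each). The treated BCL2 and BID values lie below all untreated values in both experiments, while those of BAX overlap in both and those of BAK1 in the NaPr experiment only.

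The letters of the family's promoters and regions were compared with all others. RefSeq promoters (250 bases before to 50 after a start, GRCh38.p14) were matched for 8 of the 10 genes, in 13 entries, not for MCL1 and BIK. The GC box was present in 9 of the 13 entries, from 6 of the 8 genes, and in 45.0% of all 35116 promoters. BBC3 was matched at chr19:47232618-47232917, which does not cover the start at 47231199 used above. The 200-base window over that start held 8 GC boxes. BAX had 4 matches to the E-box CACGTG, found in 7.26% of all promoters, BBC3 held 1 match to the AP-1 motif TGAGTCA, found in 4.95%, and BCL2 held none of the motifs in this window. The BAX promoter (chr19:48954625-48954924, plus strand), whose 4 E-boxes, 2 GC boxes and 2 CCAAT boxes are in capitals, is shown because it held the most motif matches of the 13 entries, while its start region was not called in either experiment.
BAX promoter: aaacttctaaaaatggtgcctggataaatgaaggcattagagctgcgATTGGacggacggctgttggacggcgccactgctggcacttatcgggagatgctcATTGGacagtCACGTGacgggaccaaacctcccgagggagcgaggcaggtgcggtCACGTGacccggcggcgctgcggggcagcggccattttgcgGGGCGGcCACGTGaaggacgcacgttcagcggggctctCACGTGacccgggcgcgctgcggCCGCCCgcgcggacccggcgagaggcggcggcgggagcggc
Over the 181 family windows of 200 bases, 11.6% held the AP-1 motif and 15.5% the GC box, against 12.7% and 11.3% of all regions. The CRE motif TGACGTCA was in 0 family windows and 0.290% of all. The ETS motif, written CCGGAAG, was in 3.31% of the family windows and 1.899% of all, and the CCAAT box in 18.8% and 22.5%. The motif bound by TBP, TATAAA, was in 2.76% and 6.98%. The GATA factor motif, AGATAA, was in 5.52% and 7.82%. Matches to the FOX motif TGTTTAC and the TEAD motif GGAATG were in 3.87% and 9.94% of the family windows and in 3.11% and 15.3% of all.

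Another 38 genes of the apoptosis pathway (other BCL2 relatives, caspases, inhibitors of apoptosis, death receptors and their adaptors, VDACs and others) held 451 regions. After NaPr 3 of 265 tested regions were higher and 21 lower (1.13% and 7.92%, against 4.57% and 3.99% of all regions), and after NaBu 40 of 269 were higher and 61 lower (14.9% and 22.7%, against 19.8% and 17.2% of all regions). Of 35 promoters tested, 0 were higher and 8 lower after NaPr (22.9% lower, against 9.14% of all start regions), and 3 were higher and 10 lower after NaBu (8.57% and 28.6%, against 9.22% and 26.1%). The called promoters with the largest change after NaPr belonged to BCL2L2, another anti-apoptotic gene (72.4 to 57.4 points), to the death receptors TNFRSF1A (80.1 to 67.8) and TNFRSF10B (82.6 to 74.8), and to BCL2L12 (93.9 to 87.3), with limma adjusted p-values of 0.0411, 0.0227, 0.0392 and 0.0155. Each of these 4 calls was lost whichever library was left out (limma adjusted p up to 0.122). After NaBu they belonged to BOK, an effector relative, to CASP10, an initiator caspase, to CFLAR, which blocks caspase 8, and to the mitochondrial channel gene VDAC1, with changes of −46.6, −42.7, −17.1 and −13.1 points (limma adjusted p = 0.00355, 0.00405, 0.00163 and 0.000322). Each was lower in the 3 treated libraries than in any untreated one. The BOK change became −3.80 points with regions merged over the 6 libraries (limma adjusted p = 0.816) and −3.10 points with summit windows (limma adjusted p = 0.855).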

How the data were processed

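ATAC-seq of SW480 cells had been processed by the authors with bcl2fastq 2.17.1, cutadapt 1.9.1, Bowtie2 2.3.1 and MACS2 2.1.0 against hg38, per the submitters' processing notes. The deposited peak lists, 1 per library, give each summit's fold enrichment (a linear ratio) and the −log10 p and −log10 q values from MACS2. The read shift and MACS2 options are not given in the sources used here. Another 8 libraries, of the mouse line CT26, were not analysed here. Some sequences and a gene's results are not reported here.

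Summits of the 12 SW480 libraries were joined into intervals, and intervals overlapping by at least 1 bp were merged into 252173 regions. Regions with a peak in at least 2 of 6 libraries received a percentile rank per library from their strongest −log10 p, with 0 for no peak. Untreated and treated libraries were compared with limma 3.58.1 (R 4.3.3, moderated test with a trend, Benjamini-Hochberg adjustment over all regions, threshold 0.05), separately in each experiment, since peak lists hold no counts. Tag numbers at summits were recovered from the fold and −log10 p (tolerance 0.01), which succeeded for 100% of summits and served as an alternative scale. The intervals cover neither regions below the peak threshold nor reads, so a missing peak is an upper limit. The procedure was run on simulated data, built from regions with a peak in all 6 libraries and with the same spread for every region. The simulation thus did not cover changes between no peak and a peak.

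Members and gene lists were chosen with earlier results of these data known. Named regions were the start region of each gene, its largest called change in each direction, the BCL2L1 intron with its neighbours, 4 called promoters per experiment from the other pathway genes, and the 5 genes most like the intron; further called regions were named after their values were seen. Alternatives included the ranking column, filters, peak thresholds, ways of merging, windows of 5 and 50 kb, scales, a replicate block and leaving out each library. Groups came from the treatment labels. Libraries were not paired by replicate number in the main fit. Deviations of same-numbered libraries had correlations of 0.0071 to 0.0461, and those of different numbers −0.0344 to 0.0198. These values cannot show whether same-numbered libraries were prepared together. Python 3.11.15, numpy 2.4.6, pandas 2.3.3, scipy 1.17.1 and matplotlib 3.10.9 were used.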

Additional observations from a re-analysis of the deposited data

How the results depend on the processing

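The counts of called regions moved with the processing, as did the number of regions tested, and the cause was not tested. For NaPr the 10 genes had 6 higher and 6 lower of 114 regions. Ranking by fold gave 0 and 1 of 114, and no filter gave 3 lower of 140. A peak in at least 3 libraries gave 10 lower of 102, and all 12 libraries in one fit 12 lower of 114. Tags centred on the median gave 11 and 17 of 75, and tags over the genome background 10 and 0 of 75. Over all 124067 regions, ranking by fold gave 2164 higher and 1303 lower, against 5664 and 4954 in the main fit. Leaving out 1 library gave 0 to 4 higher and 0 to 1 lower. For NaBu the other 9 genes had 10 higher and 19 lower of 93 regions. The top 50000 intervals gave 4 higher of 50, and summit windows 21 and 29 of 132. Both tag scales gave 3 and 31 of 58. Windows of 5 kb gave 4 higher of 57, and windows of 50 kb 20 and 31 of 143. Over all regions summit windows gave 32589 higher and 29949 lower of 165560, against 24467 and 21343 of 123730 in the main fit.

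The other pathway genes had 3 higher and 21 lower of 265 regions after NaPr. Ranking by fold gave 0 and 5 of 265, no filter 1 and 12 of 371, and the top 50000 intervals 6 higher of 151. Summit windows gave 5 and 34 of 389, and one fit 8 and 32 of 265. Centred tags gave 7 and 64 of 176, and tags over background 9 and 1 of 176. Windows of 50 kb gave 11 and 35 of 485. Leaving out 1 library gave 0 to 1 higher and 0 to 3 lower. After NaBu they had 40 higher and 61 lower of 269. Ranking by fold gave 37 lower of 269, the top 50000 intervals 26 and 38 of 136, and summit windows 97 lower of 394. Both tag scales gave 25 higher of 174, and 5 kb windows 20 higher of 180. With 50 kb windows there were 76 and 107 of 474.

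With the replicate number as a block, NaPr gave 0 higher and 0 lower regions in the family and in the other pathway genes (0 over the genome by limma, with 29238 at an unadjusted p below 0.05), whereas NaBu gave 45033 calls against 45810. The labels give these libraries only a shared number, which does not show whether they were prepared together.

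The NaPr change at the BCL2L1 region 31705447 reversed from −11.4 points to 0.45 (centred) and 0.71 (over background) on the log2 scale. Over all regions 53.3% of NaPr and 53.4% of NaBu calls were higher, and 64.2% and 62.6% when ranks were taken only among regions with a peak in the library, a choice made after seeing the data. The BCL2L1 intron loss after NaBu was −36.1 points by fold and −80.0 to −92.7 otherwise. Regions with no peak in some library could not be given tag changes.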
